A study of Rattus norvegicus with 4 samples.

Results

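Histone genes were followed across 4 arrays of primary rat astrocytes. The members were the genes whose symbol, in the probe annotation or in RefSeq, carried a histone prefix, and 34 of the 18166 genes measured by a probe of a single gene met this rule. Each of the 34 had 1 such probe, so the choice of the brightest probe per gene played no part. They were divided into 26 replication-dependent genes, of the kind found in the histone gene clusters, and 8 variant genes. By the class rule as first written, which went by symbol, H1f1, H1f5, H1f6 and H3f4 counted among 12 variants and 22 genes were replication-dependent. Those 4 were moved after the files were read, all 4 were higher with GW, and counts under the first rule are therefore given beside the main ones. The gene family was chosen by name, but with the differences between these same arrays already known, so its counts below are descriptions and no test was made.

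The astrocytes, the star-shaped glia of the brain, were grown from the cerebral cortex of Sprague-Dawley rats aged 1 day and held in serum-free MEM for 2 days to deplete microglia and meningeal cells. Control siRNA was transfected into 3 cultures, of which 1 was left without treatment, 1 received IFN-γ, a cytokine of T cells and natural killer cells, and 1 received IFN-γ together with a compound labelled GW. SHP siRNA was transfected into the fourth culture, which also received IFN-γ and GW. Treatment lasted 3 h, and each group held 1 array, so there is no error between cultures, and an effect of a condition cannot be told apart from a property of that culture or array. GW without IFN-γ and SHP siRNA without GW were not analysed here, and the amount of GW and of IFN-γ is not given in the sources used here.

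Histones are the proteins around which DNA is wound. Replication-dependent histone genes supply H1, H2A, H2B, H3 and H4 during S phase, and their messenger RNAs usually end in a stem-loop in place of a poly(A) tail. Variant genes, such as those of H2A.Z and H3.3, are transcribed throughout the cell cycle into polyadenylated messages, and their proteins replace the canonical ones at particular places in chromatin. In cultured glia, as elsewhere, the replication-dependent genes are known as markers of cells that are copying DNA.

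Promoters are shown first, as a description. Of the 26 replication-dependent genes 21 were higher on both arrays with GW than on both without, against 24.4% of all genes. A part of the promoters in this was not tested. Of the 34 genes, 31 had a promoter in the RefSeq table of assembly GRCr8, of which 24 were replication-dependent and 7 were variant. The 200 bases before the annotated start of 6 of them are printed 5′ to 3′ on the strand of the gene. Capitals mark CCAAT, the core bound by NF-Y, TATAAA, the TATA box bound by TBP, and ATTTGCAT, the octamer bound by POU factors, each on either strand. The first 4 belong to replication-dependent genes that were higher with GW, and the last 2 to variant genes, 1 lower with GW and 1 nearly level.
H2bc12, GRCr8 chr17:47181941-47182140, minus strand: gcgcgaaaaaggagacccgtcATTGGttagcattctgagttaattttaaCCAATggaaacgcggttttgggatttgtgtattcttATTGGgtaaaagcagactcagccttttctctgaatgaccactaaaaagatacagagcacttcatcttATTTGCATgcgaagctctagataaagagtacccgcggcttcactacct
H2bc8, GRCr8 chr17:47404205-47404404, plus strand: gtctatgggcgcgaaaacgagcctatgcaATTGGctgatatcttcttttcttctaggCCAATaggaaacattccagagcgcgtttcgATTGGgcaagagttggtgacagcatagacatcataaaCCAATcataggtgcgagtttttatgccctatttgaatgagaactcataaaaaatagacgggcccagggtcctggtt
H2bcl1, GRCr8 chr17:47448684-47448883, minus strand: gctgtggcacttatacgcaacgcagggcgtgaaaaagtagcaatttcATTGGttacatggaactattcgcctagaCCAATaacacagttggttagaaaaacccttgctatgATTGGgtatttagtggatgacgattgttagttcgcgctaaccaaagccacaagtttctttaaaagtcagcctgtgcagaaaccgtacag
H1f6, GRCr8 chr17:41855961-41856160, minus strand: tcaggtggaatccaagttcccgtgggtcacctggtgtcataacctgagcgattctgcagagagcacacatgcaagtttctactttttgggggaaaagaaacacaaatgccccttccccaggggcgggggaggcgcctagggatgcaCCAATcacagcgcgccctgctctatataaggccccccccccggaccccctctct
H2az1, GRCr8 chr2:229028895-229029094, plus strand: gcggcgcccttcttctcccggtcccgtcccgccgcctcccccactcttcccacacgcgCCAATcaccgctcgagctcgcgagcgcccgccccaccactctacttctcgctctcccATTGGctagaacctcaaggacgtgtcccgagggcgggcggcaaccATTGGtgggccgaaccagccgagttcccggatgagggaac
H3f3b, GRCr8 chr10:101757637-101757836, minus strand: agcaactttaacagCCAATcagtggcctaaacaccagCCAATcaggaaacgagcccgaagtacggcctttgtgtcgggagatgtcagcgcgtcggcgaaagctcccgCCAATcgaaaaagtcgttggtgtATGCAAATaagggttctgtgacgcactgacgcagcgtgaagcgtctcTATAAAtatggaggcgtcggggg

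A match to CCAAT on either strand was present in the 300-base window (250 before and 50 after the start) of 23 of 24 replication-dependent genes and of 3 of 7 variant genes, against 37.5% of all 33469 promoters. TATAAA was present in 15 of 24 and 2 of 7, against 14.2%, counted at any place in the window and on either strand. In H1f1 it stood at -33 to -28 from the start. In H2bc12 it stood at -217 to -212 on the opposite strand, in H3f4 at 32 to 37 and in H2az1 at 10 to 15. The counts are therefore of letters and not of placed TATA boxes. With the classes as first written CCAAT was present in 19 of 20 and 7 of 11, and TATAAA in 12 of 20 and 5 of 11. The octamer ATTTGCAT was present in 10 of 24 and 1 of 7, against 1.78%, and the 10 were 5 of 7 H2A genes and 5 of 10 H2B genes. Neither TGACGTCA, the cyclic AMP response element, nor TGACTCA, the AP-1 site, matched any of the 31 windows (0 of 24 and 0 of 7), against 1.83% and 4.63% of all promoters. That says only that these letters are not in these windows. No matches of different motifs overlapped (0 pairs). A match is a string of letters, and no binding was measured here.

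Histone genes of the H2A and H2B families often stand head to head, and 3 such pairs had overlapping windows, so their matches are counted for both genes. H2bc12 and H2ac12 shared 248 bases, and their log2 differences with GW against IFN-γ alone were 0.87 and 0.83. H2ac20 and Hist2h2be shared 275 bases, and differed by 0.17 and -0.35. The testis-type pair H2ac1 and H2bc1 shared 261 bases, and differed by -0.35 and 0.33. Members of 1 pair thus lay close together and members of the other 2 pairs lay on opposite sides of 0. The octamer was in the windows of 10 of 24 replication-dependent genes, among them H2bc12, H2ac12, Hist1h2af (1.01) and Hist2h2be. H2bc8, H2bcl1 and H1f6, which differed by 1.44, 1.98 and 1.61, had none in the window. Whether the octamer goes with the difference was not tested.

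**Figure D1:**
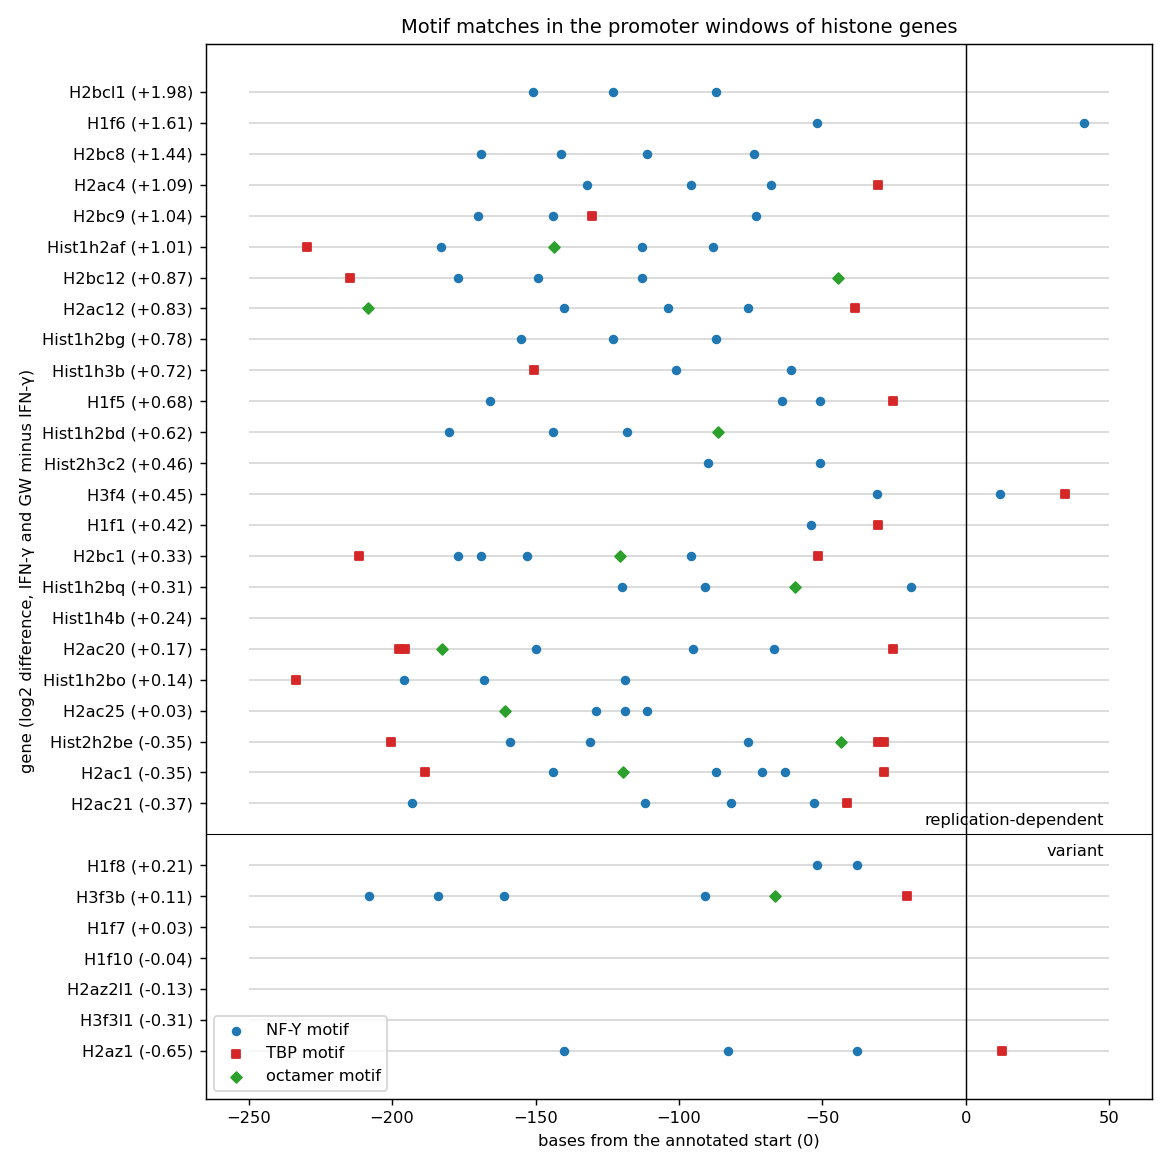
Positions of matches to the NF-Y, TBP and octamer motifs in the promoter windows of 31 histone genes, with the horizontal axis in bases from the annotated start and the log2 difference between IFN-γ with GW and IFN-γ alone beside each symbol. NF-Y matches appear in 23 of 24 replication-dependent windows, at every level of the difference, and in 3 of 7 variant windows.

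Replication-dependent histone transcripts stood higher once GW was present beside IFN-γ. Of 26 genes, 23 lay above 0, 14 reached 1.5-fold higher and 7 reached 2-fold higher, while 0 reached 1.5-fold lower. Over all genes the shares were 50.0% above 0, 3.10% past 1.5-fold higher and 0.721% past 2-fold higher. The median log2 difference of the 26 was 0.65, against 0.00 over all 18166 genes. The 7 were the H2B genes Hist2h2bb, H2bcl1, H2bc8 and H2bc9, the H2A genes H2ac4 and Hist1h2af, and the linker histone gene H1f6. Variant genes had a median of -0.09, 3 of 8 above 0, 2 at least 1.5-fold lower, against 3.68% of all genes, and 0 at least 1.5-fold higher. With the classes as first written the 12 variants had a median of 0.070, 7 above 0, 2 at least 1.5-fold higher, 1 of them 2-fold higher, and 2 at least 1.5-fold lower. Under that rule the 22 replication-dependent genes had a median of 0.67, with 19 above 0, 12 at 1.5-fold and 6 at 2-fold. The sign of the variant median thus depends on where those 4 genes are placed, and the direction of the replication-dependent genes does not. At 3-fold higher lay Hist2h2bb, H2bcl1 and H1f6, or 3 of 34, against 0.275% of all genes. None of the 34 was 2-fold lower (0), against 0.699% of all genes.

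All log2 values are given in the order untreated, IFN-γ, IFN-γ with GW, and SHP siRNA with IFN-γ and GW. Values are not compared between genes, because probes differ in their response. The table median over every probe and array was 5.83. On at least 1 array 29 of the 34 genes reached it, as did 11790 of all 18166 genes. H2ac1, Hist1h2bd, Hist1h2bo, H1f7 and H1f8 did not, and the size of their differences is uncertain because the background of the arrays is unknown.

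H2B, which pairs with H2A in the nucleosome core, gave the greatest differences. Hist2h2bb had log2 values of 8.26, 7.68, 9.77 and 9.10, and its signal with GW was 4.25 times that on the IFN-γ array, a difference that 24 of 18166 genes exceeded. H2bcl1 had 4.44, 4.23, 6.21 and 5.95, and was 3.96-fold higher with GW, although both arrays without GW lay below 5.83 and the fold is uncertain. In both genes the 2 arrays with GW stood clear above the 2 without.

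H2bc8 had 8.80, 8.59, 10.04 and 9.48, which was 2.72-fold higher with GW. H2bc9 had 6.04, 5.38, 6.42 and 6.98, so that its lowest value was with IFN-γ alone and its highest with SHP siRNA. H2bc12 had 11.25, 11.03, 11.90 and 11.69, a 1.83-fold difference with GW. These genes again separated the arrays by GW, with the SHP siRNA array below the control siRNA array in H2bc8 and H2bc12 and above it in H2bc9.

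Hist1h2bg had 8.41, 8.14, 8.93 and 8.95, which was 1.72-fold higher with GW. Hist1h2bq had 11.99, 11.92, 12.23 and 12.31, and differed by 0.31. Hist1h2bd had 4.45, 4.24, 4.87 and 4.77. The differences of these 3 genes had 1 direction and unequal size.

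Hist1h2bo had 4.24, 4.36, 4.50 and 4.98. H2bc1, the testis H2B gene also called Th2b, had 5.29, 5.50, 5.83 and 6.02. In both the untreated value was the lowest and the SHP siRNA value the highest. Hist2h2be had 7.52, 7.20, 6.85 and 7.07, the 1 H2B gene of 11 that was lower with GW. Of the 11 H2B genes 10 lay above 0, against 50.0% of all genes, and 7 reached 1.5-fold, against 3.10%. Their median was 0.78.

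H2A, the partner of H2B, was less uniform. H2ac4 had 7.88, 7.27, 8.36 and 8.23, and was 2.13-fold higher with GW. Hist1h2af had 6.81, 6.61, 7.62 and 7.58, a 2.01-fold difference. H2ac12 had 9.01, 8.70, 9.53 and 9.57. These 3 H2A genes lay higher on both arrays with GW than on both without.

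H2ac25 had 8.68, 8.36, 8.39 and 8.50, and its difference of 0.03 with GW changed sign when the arrays were centred on their medians. H2ac20 had 5.95, 5.56, 5.73 and 5.62. H2ac1, the testis H2A gene also called Th2a, had 4.36, 4.88, 4.53 and 4.67. In none of these 3 (0 of 3) did the arrays with GW separate from those without.

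H2ac21 had 6.07, 6.29, 5.92 and 4.97. It was the lowest of the 26 genes in the comparison with GW, at -0.37, and the lowest with SHP siRNA, at -0.95. Only 61 of 18166 genes had a lower difference between SHP siRNA and control siRNA, but its SHP siRNA value was under 5.83, which leaves the size uncertain. Of the 7 H2A genes 5 lay above 0 with GW, against 50.0% of all genes, with a median of 0.17.

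Linker histone H1 binds the DNA between nucleosomes. H1f6 encodes H1t, a linker histone known from spermatocytes, and had 6.09, 6.06, 7.67 and 8.25. Its signal with GW was 3.05 times that on the IFN-γ array, a difference exceeded by 49 genes, and its log2 value with SHP siRNA was 0.58 higher again. Between the SHP siRNA array and the IFN-γ array it differed by 2.19, and 3 of 18166 genes exceeded that. H1f6 was thus higher on both arrays with GW than on both without, and higher still with SHP siRNA. Other members had the same order, among them H2bc9, at 1.04 with GW against IFN-γ alone and 0.55 more with SHP siRNA.

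H1f5, encoding H1.5, had 7.30, 7.23, 7.91 and 7.81, and was 1.60-fold higher with GW. H1f1, encoding H1.1, had 6.59, 6.49, 6.92 and 7.003. Both arrays with GW lay above both without in each of the 3 replication-dependent H1 genes.

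H3 and H4 form the tetramer at the centre of the nucleosome. Hist1h3b had 8.02, 7.95, 8.67 and 8.68, and was 1.64-fold higher with GW. Hist2h3c2 had 10.76, 10.59, 11.05 and 11.03. H3f4, listed by RefSeq also as Hist3h3, had 5.73, 5.62, 6.07 and 5.97. All 3 lay above 0, between 0.45 and 0.72.

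H4c14 had 9.47, 9.28, 10.12 and 9.84, which was 1.79-fold higher with GW. Hist1h4b had 10.72, 10.70, 10.94 and 11.00, and differed by 0.24. The 2 H4 genes therefore had the same direction and differed in size.

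**Figure D2:**
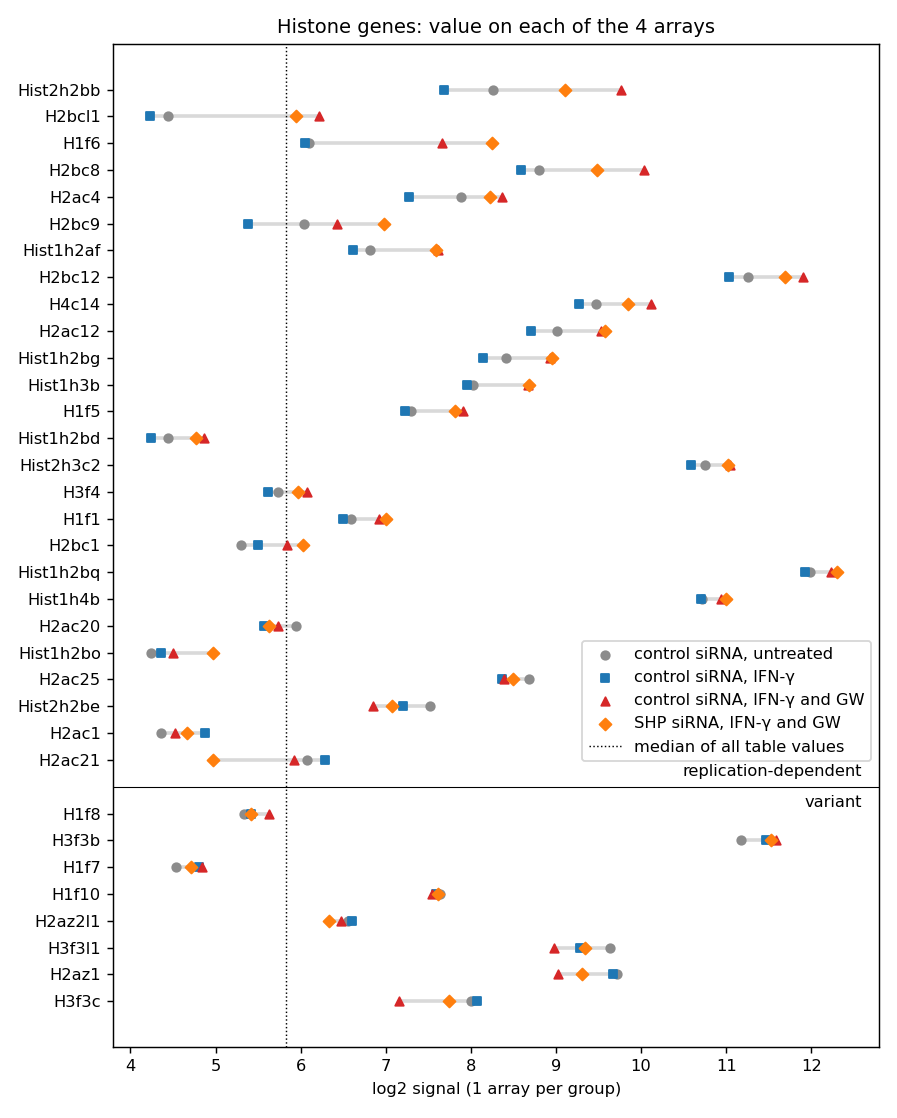
Log2 signal of the 34 histone genes on each of the 4 arrays, with 1 point per array, 1 row per gene and the dotted line at the table median of 5.83. In 21 of 26 replication-dependent genes both arrays with GW lie to the right of both arrays without, and in 1 of 8 variant genes (17 of 22 and 5 of 12 with the classes as first written). Over all genes the share was 24.4%.

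Variant histones were mixed. H3f3b, 1 of the genes that encode H3.3, had 11.18, 11.47, 11.58 and 11.52. It differed by 0.30 between IFN-γ and untreated and by 0.11 between IFN-γ with GW and IFN-γ alone. H3f3b was lowest in the untreated culture and nearly level in the 3 cultures with IFN-γ.

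H3f3l1, named as an H3.3-like gene, had 9.63, 9.28, 8.98 and 9.34. H3f3c, which RefSeq lists as a pseudogene, had 8.0015, 8.07, 7.16 and 7.75, and was 1.88-fold lower with GW than with IFN-γ alone. Copies of H3.3 share sequence, so which gene their probes measured is uncertain. H3f3c and H3f3l1 were lowest in the control siRNA culture with GW, and with SHP siRNA were 0.59 and 0.37 higher than there.

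H2az1 encodes H2A.Z, which marks nucleosomes beside transcription starts, and had 9.72, 9.67, 9.02 and 9.30. It was 1.57-fold lower with GW. H2az2l1, a like copy of the second H2A.Z gene, had 6.56, 6.60, 6.47 and 6.34. Both lay lower on both arrays with GW than on both without.

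The linker variant H1f10, also called H1fx, had 7.64, 7.59, 7.55 and 7.61. H1f7, known from spermatids, had 4.54, 4.81, 4.84 and 4.71. H1f8, known from oocytes, had 5.33, 5.42, 5.63 and 5.42. These 3 spanned at most 0.30 between any 2 arrays. The difference of H1f7 with GW, 0.03, turned negative under quantile normalization, median centring and cyclic loess, and that of H1f10, -0.04, turned positive under quantile normalization.

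Both arrays with GW lay above both without in 21 of 26 replication-dependent genes and 1 of 8 variants, against 24.4% of all genes. With the classes as first written these counts were 17 of 22 and 5 of 12. They lay below in 2 of 26, H2ac21 and Hist2h2be, and in 3 of 8 variants, H2az1, H2az2l1 and H3f3c, against 27.9% of all genes. The arrays with GW differ from those without also in siRNA or IFN-γ, so GW is 1 of several differences between the pairs. The difference between the culture with SHP siRNA and the untreated culture uses 2 of these same 4 arrays. It shares no array only with the difference between IFN-γ with GW and IFN-γ alone. There 22 of 26 replication-dependent genes lay above 0, against 47.2% of all genes, with a median of 0.42, and 9 were at least 1.5-fold higher, against 3.64%. At least 2-fold higher were 2, H1f6 and H2bcl1, against 1.13%, and H1f6 (2.15) alone of the 26 passed 3-fold, against 0.534%. H2ac21, at -1.10, was the 1 gene at least 2-fold lower, against 0.650%, and 0 reached 3-fold lower, against 0.0606%. The variants had a median of -0.13, which was 0.13 over the 12 of the first rule.

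By RefSeq's GRCr8, 18 of the replication-dependent genes lie on chromosome 17, which holds the main histone cluster. Of the 18, 17 lay above 0 and 12 reached 1.5-fold higher with GW, against 50.0% and 3.10% of all genes. The 1 below 0 was H2ac1, and the median of the 18 was 0.75. The 5 on chromosome 2 had a median of 0.17 with GW, from -0.37 for H2ac21 to 0.84 for H4c14. On chromosome 10 H2ac25 and H3f4 differed by 0.03 and 0.45. Hist2h2bb, the gene with the greatest difference, was not placed, because its identifier was not matched in the RefSeq table.

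A further 19 probes are annotated to several genes, all of them histone genes, and were kept out of the counts above because they name no single gene. Of the 15 that belong to replication-dependent genes, 15 lay above 0 with GW, 8 reached 1.5-fold and 5 reached 2-fold. Over all genes the shares were 50.0%, 3.10% and 0.721%. The median of the 15 was 0.71. In 12 of the 15 both arrays with GW lay above both without, against 24.4% of all genes. These probes share sequence with members and with each other and are not independent of them. The 4 shared probes of variants had a median of 0.30, with 2 above and 2 below 0. These 4 are annotated to H2A.Z or H3.3 genes and ran from -0.41 to 0.94, so the probes of such genes did not share 1 direction.

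**Figure D3:**
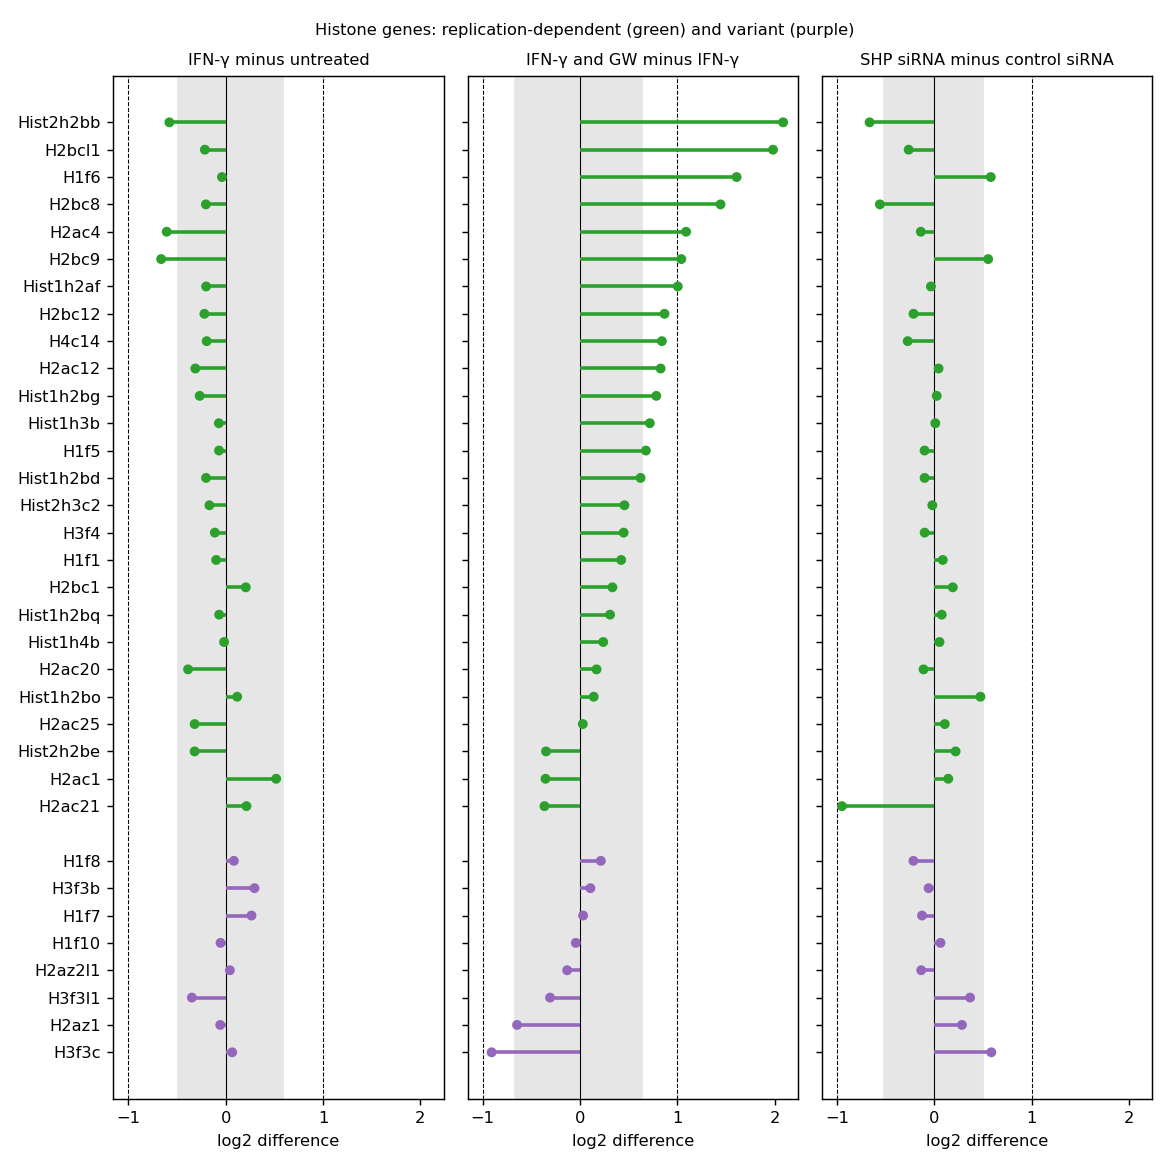
Log2 differences of the 34 histone genes in the 3 main comparisons, with replication-dependent genes in green, variants in purple, the middle 95% of all 18166 genes in grey and dashed lines at 2-fold. In the middle panel 23 of 26 green points lie right of 0 and 7 pass 2-fold, and no histone gene passes 2-fold in the other panels (0 of 34).

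IFN-γ alone went with slightly lower replication-dependent histone transcripts. Of 26 genes 22 lay below 0, against 56.3% of all genes, with a median of -0.20, against -0.03. Of these 2 were at least 1.5-fold lower, H2bc9 at -0.66 and H2ac4 at -0.61, against 1.63% of all genes, and 0 reached 2-fold lower or higher, against 0.270% and 1.11%. Hist2h2bb was at -0.58 and H2ac1 at 0.52. The 8 variants had a median of 0.05, between -0.35 for H3f3l1 and 0.30 for H3f3b, and the 12 of the first rule had -0.046. Since the IFN-γ array is subtracted in the comparison with GW, a low value on it makes that difference greater. Against the untreated array the culture with IFN-γ and GW still had 22 of 26 genes above 0, against 48.7% of all genes, a median of 0.45, 9 genes at least 1.5-fold higher, against 3.90%, and 4 at least 2-fold higher, against 1.16%. At least 1.5-fold lower was 1 of the 26 and 3 of the 8 variants, against 4.84%, and the variant median was -0.09, or 0.30 by the first rule. The 4 at least 2-fold higher were H2bcl1 (1.77), H1f6 (1.57), Hist2h2bb (1.51) and H2bc8 (1.24). Of these H2bcl1 alone passed 3-fold higher, against 0.584% of all genes.

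SHP siRNA, against control siRNA under IFN-γ and GW, split the histone genes about evenly. Nr0b2, which encodes the nuclear receptor SHP, had 5.33, 5.14, 5.20 and 3.45 on the 4 arrays, lowest in the SHP siRNA culture and below 5.83 throughout. Of 26 replication-dependent genes 13 lay above 0 and 13 below, against 48.4% of all genes above, and the median was -0.01. At least 1.5-fold lower were 2, H2ac21 and Hist2h2bb (-0.67), against 1.73% of all genes, and H2bc8 was at -0.56. H1f6 at 0.58, H2bc9 at 0.55 and Hist1h2bo at 0.47 were the highest of the 26. Among variants H3f3c, at 0.59, was at least 1.5-fold higher, against 1.46% of all genes. No histone gene reached 2-fold in this comparison (0 of 34), against 0.149% of all genes higher and 0.264% lower. The shared probes of replication-dependent genes had a median of -0.17, with 13 of 15 below 0, against 9344 of 18166 genes. Against the IFN-γ culture the SHP siRNA culture had 23 of 26 replication-dependent genes above 0, against 48.3% of all genes, with a median of 0.57. There 12 were at least 1.5-fold higher, against 2.17%, and 4 at least 2-fold higher, against 0.369%. H2ac21 was the 1 gene at least 2-fold lower, against 0.330%, and 0 reached 3-fold lower, against 0.0440%. That difference shares the IFN-γ array with the comparison of IFN-γ with GW and IFN-γ alone.

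Genes that act with histones had medians near 0 with GW. Of 19 genes for histone transcription and pre-mRNA processing, 10 lay above 0 with GW, against 50.0% of all genes, and the median was 0.01. At 1.5-fold in either direction lay 0, against 3.10% of all genes higher and 3.68% lower. Slbp, whose protein binds the histone stem-loop, had 5.48, 5.35, 5.32 and 5.38. Npat, which activates histone genes at the start of S phase, had 8.07, 8.07, 8.34 and 8.29. Pou2f1, which encodes the octamer-binding protein Oct-1, differed by 0.54 and Casp8ap2 by 0.38, while Cpsf1, a subunit of the cleavage complex, differed by -0.42. Npat was higher on both arrays with GW than on both without, and Slbp was below 5.83 on all 4 arrays.

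Of 23 genes for histone chaperones and deposition 1 was at least 1.5-fold lower with GW, against 3.68% of all genes, and 0 higher, against 3.10%. That gene was Daxx, a chaperone of H3.3, at -0.66. The median of the 23 was -0.01. Hat1, which acetylates new H4, was at -0.36, and Cenpa, the centromeric H3, was at 0.03. Among 10 histone genes that the prefixes do not cover, an addition made after the values were seen, the median was 0.05 and 0 reached 1.5-fold. H2ax, whose protein is phosphorylated at DNA breaks, had 8.82, 8.59, 8.66 and 8.82. Of the 10 genes 6 lay above 0, against 50.0% of all genes, with H2ab3 the highest at 0.45. Macroh2a1 and Macroh2a2, with large extra domains, differed by -0.17 and -0.10, and H2aj, the lowest, by -0.28.

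DNA replication and division genes had medians slightly below 0 with GW. Of 31 genes for DNA replication and S phase 20 lay below 0 with GW, against 9061 of 18166 genes, and the median was -0.10. None reached 1.5-fold in either direction (0), against 3.10% of all genes higher and 3.68% lower. Prim1, a primase subunit, was at -0.57, Rfc3 at -0.51 and the ribonucleotide reductase gene Rrm2 at -0.42. Of 23 genes for G2 and mitosis 15 lay below 0, with a median of -0.12, Cdk1 at -0.37 and Mki67 at 0.37. With IFN-γ alone both lists were lower beside the histone genes, with medians of -0.16 and -0.29. In the second 23 of 23 lay below 0, against 56.3% of all genes. With SHP siRNA the G2 and mitosis list had a median of 0.36 with 21 of 23 above 0, against 48.4% of all genes. Top2a was at 0.69, while the median of the replication-dependent histone genes was -0.01. The cell cycle stage of the cultures was not measured.

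Markers of the cell types that such cultures can hold were read beside the histone genes. Of 12 astrocyte markers measured 11 reached 5.83, among them Gfap, Aqp4 and Slc1a3, and their medians were 0.04, -0.17 and 0.14 for IFN-γ, GW and SHP siRNA. Of 18 microglia and myeloid markers 18 reached 5.83, against 11790 of 18166 genes. Reaching 5.83 does not show how many such cells remained after the serum-free step. The medians of these 18 markers were -0.35, -0.48 and 0.17, and 16 of 18 lay below 0 with IFN-γ, against 56.3% of all genes. With GW 16 of 18 again lay below 0, against 9061 of 18166 genes. The summed linear signal of these markers ran 19476, 16006, 10990 and 12453 over the 4 arrays. With GW 5 of the 18 were at least 1.5-fold lower, among them Tyrobp at -1.22 and Ptprc at -1.16, against 3.68% of all genes. At least 1.5-fold higher was 1, Cx3cr1 at 0.68, against 3.10%. With IFN-γ Cx3cr1 was at -1.23 and Ptprc at 0.23. Meningeal markers had medians of 0.06, -0.10 and 0.43, oligodendrocyte lineage markers -0.03, -0.06 and -0.00, neuron markers 0.11, -0.09 and 0.03, and reference genes 0.00, -0.22 and -0.05. Fewer cells of a type and less RNA per cell cannot be told apart in such cultures, and the part of these shifts in the histone values was not tested.

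**Figure D4:**
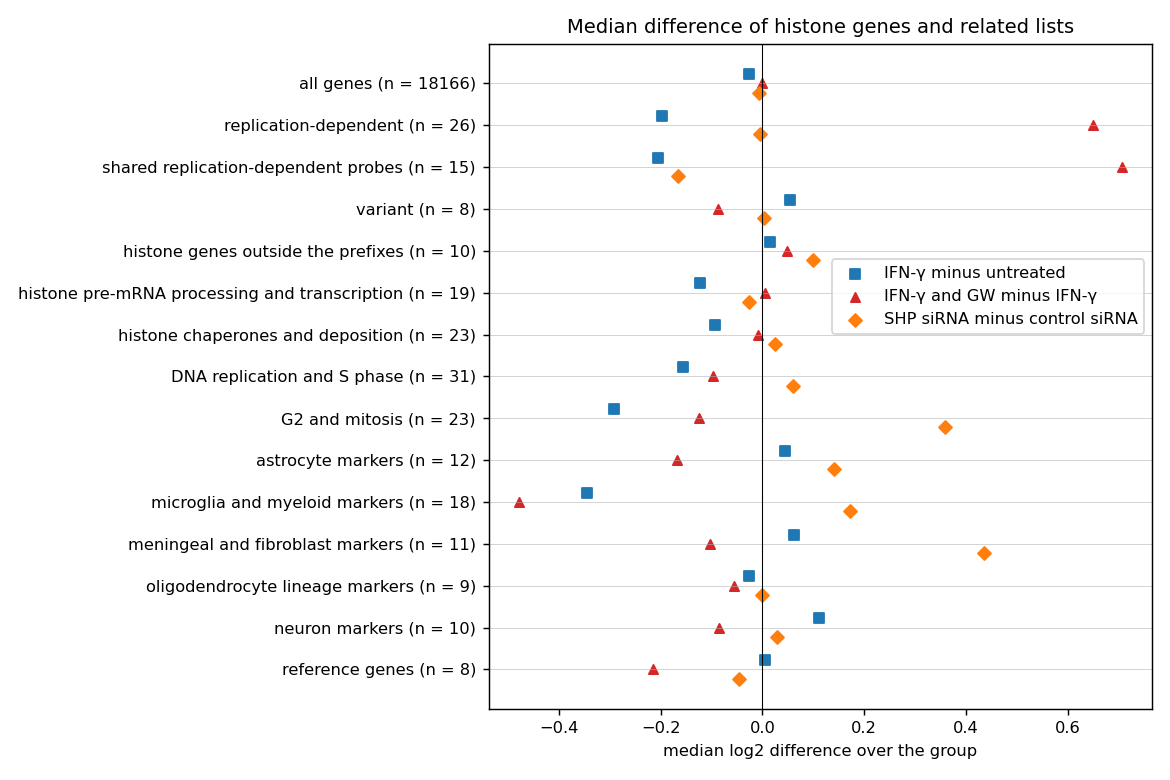
Median log2 difference over each list in the 3 main comparisons, with the number of genes or probes in brackets. The replication-dependent genes and the shared probes of such genes lie at 0.65 and 0.71 with GW. The DNA replication and mitosis lists lie at -0.10 and -0.12, and the reference genes at -0.22.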

How the data were processed

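Total RNA was labelled with biotin through a GeneChip WT kit, per the labels' protocols, and the authors deposited 1 value per probe and array for 29489 probes. The deposited values were taken as log2 signal from their range of 1.14 to 13.4, and the labels state neither the log base nor how the authors corrected background and normalized. They were used unchanged. Of the probes 18511 had a single gene symbol, 575 several and 10403 none. Symbols were updated through Entrez identifiers in the RefSeq table of GRCr8, where 33 of 34 histone genes matched. Where a gene had several probes the one with the highest mean was used, with no filter on level.

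Differences of log2 values between 2 single arrays were described by counts and medians in Python 3.11.15, and no test was made. Counting was tested on simulated data. The median of each of 4 arrays lay between 5.79 and 5.87, and the number of arrays limits the precision. Members and lists were chosen with earlier results of these data known. Variants were to be all genes written H1f, H2af or H3f; H1f1, H1f5, H1f6 and H3f4 were placed with the replication-dependent genes after the files were read, because they encode cluster histones. Genes named were all members, up to 3 members per other list and comparison by size of difference, Slbp, Npat, Cenpa, Nr0b2, and those said to be added. Alternatives were quantile normalization and cyclic loess (limma 3.58.1 in R 4.3.3), median centring, a level filter, other uses of several probes, other thresholds, list means and other class limits.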

Additional observations from a re-analysis of the deposited data

How the results depend on the processing

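No paired analysis was possible because each group held 1 array. With 1 array a group none could be left out, no pseudocount was needed, and the limit to members of distinct protein was not run because no protein sequences were used. The genes set as testis-type were H1f6, H2bc1, H2ac1 and H3f4. H1f7, a variant known from spermatids, was not in that set. Each member had 1 probe and the set held no variant, so 90 recomputed values repeat the main ones by construction. They show nothing about stability. Of the other 258 values 228 kept their count within 1.5 times or their median within 0.1, and 30 moved. Part of the 228 could not move, because a 2-fold count of 0 stays 0 at 3-fold and in any subset of the same genes. The 228 are therefore no measure of stability. No median of at least 1.5-fold changed sign (0), but among the main medians only that of the replication-dependent genes with GW, 0.65, was that large. Smaller medians did change sign, as that of the variants for IFN-γ with GW over untreated, which ranged from -0.38 to 0.30. The median of the replication-dependent genes with GW ranged from 0.58 to 0.72. At a threshold of 1.5-fold the replication-dependent counts were 14 higher with GW, 2 lower with IFN-γ, 2 lower with SHP siRNA, 9 higher and 1 lower for IFN-γ with GW over untreated, 9 higher for SHP siRNA with GW over untreated and 12 higher for SHP siRNA with GW over IFN-γ. The variant counts were 2 lower with GW, 1 higher with SHP siRNA and 3 lower for IFN-γ with GW over untreated. At 3-fold the replication-dependent counts were 3 higher with GW, 1 higher in each comparison of a GW culture with untreated, and 0 lower for SHP siRNA with GW over untreated or over IFN-γ.

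For variants the medians depended on which genes were counted. Among the 6 that reached the table median they were -0.22 with GW, 0.17 with SHP siRNA, -0.38 for IFN-γ with GW over untreated and -0.24 for SHP siRNA with GW over untreated, and the mean of all 8 with GW was -0.21. The classes as first written came first, and the main classes of 26 and 8 were chosen after the files were read. By the first rule the 12 variants had medians of -0.046 with IFN-γ, 0.070 with GW, 0.30 for IFN-γ with GW over untreated and 0.13 for SHP siRNA with GW over untreated. By that rule 1 variant, H1f6, was 2-fold higher with GW and in the 3 other comparisons of a GW culture with a culture without it, and 1 replication-dependent gene was 2-fold higher for SHP siRNA with GW over untreated. Without the testis-type genes, a limit chosen after seeing the data, that count was 1. Quantile normalization, median centring and cyclic loess also turned the sign of Hist1h4b with IFN-γ (cyclic loess) and of Hist1h3b (quantile, loess) and Hist2h3c2 (centring) with SHP siRNA.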
